A study of Homo sapiens with 21 samples.

Results

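KLE endometrial carcinoma cells carrying a short hairpin RNA against MSH3 were compared with KLE cells carrying a short hairpin RNA against MSH6, without using the control hairpin in the test. The sample titles chose the arrays: 12 of the 21 arrays of the series, 3 each (letters A, B and C) for hairpins 059 and 062 against MSH3 and for hairpins 543 and 603 against MSH6. All cells in the comparison are of the same line and all carry a hairpin, so the groups differ by the target and by the hairpin. The labels give no drug, dose or time, and do not say whether the lines are clones. Nothing states that A, B and C came from separate cultures, and the p-values therefore describe array-to-array spread, which may be technical. The 3 KLE shCTRL arrays are shown beside the results as a level, and the HCT116 and MCF10A arrays entered the normalization only. The sequences of the hairpins were not analysed here.

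Mismatch repair corrects errors left by DNA replication. MSH6 is part of the complex that binds base mismatches and very short loops, and MSH3 of the complex that binds longer insertion and deletion loops. Loss of MSH6 or of the factors downstream of both complexes is frequent in endometrial cancer, the tissue from which KLE was derived.

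Each value is the log2 of a probe's intensity after quantile normalization, and the median probe of an array lies at 6.92, which is close to the background. Of the 20046 genes, each read by its brightest probe, 12313 had a mean above that level. The endometrial and Mullerian transcription factor genes PAX8 (9.18), EMX2 (11.37) and SOX17 (9.47) and the epithelial genes KRT8 (12.12), KRT19 (12.38) and EPCAM (12.31) were high on the 12 arrays. The hormone receptor genes ESR1 (6.86) and PGR (6.83) lay at background, as did the leukocyte gene PTPRC (6.84), the endothelial gene PECAM1 (6.90) and the colon gene CDX2 (6.84). KRT7 (7.14) and MUC16 (7.31), also epithelial, were near background. Of the marker lists, 12 of 17 Mullerian, 0 of 12 colon, 7 of 14 leukocyte, 3 of 10 endothelial and 5 of 11 stromal genes exceeded the array median. The summed linear intensity of the stromal list, which holds COL3A1, was 2749 to 3708 with MSH3 hairpins and 2217 to 2832 with MSH6 hairpins. The part of other cells in the results was not tested, and in bulk RNA fewer cells of a type and less RNA per cell cannot be told apart. Array medians before normalization were 87.71 to 119.2 intensity units.

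The letter of the title separated the arrays. On the first principal component of the 12 arrays, which carried 52.1% of the variance, the 4 A arrays lay apart from B and C. Against the B and C arrays, those of letter A had 3014 genes at a higher and 2153 at a lower level. The stated rule of the comparison made the letter a block, and it was kept except where fits without it are named. Array values of many named genes are given by letter.

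The targets were examined first. MSH6 gave 11.14, 10.89 and 10.85 on the A, B and C arrays of hairpin 059, and 10.83, 10.79 and 10.88 on those of 062. It gave 9.06, 8.45 and 8.70 with 543, and 10.24, 9.75 and 9.84 with 603. The groups did not overlap, every MSH6 hairpin array lying below every MSH3 hairpin array, and 543 lay below 603. The mean of the MSH3 hairpins was 2.94-fold that of the MSH6 hairpins (log2 difference 1.56, SE 0.072, adjusted p = 6.3e-05, limma), and each of the 4 hairpin pairs passed, with log2 differences from 0.89 (062 minus 603) to 2.22 (059 minus 543).

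MSH3 itself was read by a dim and a bright probe. On the dim probe, ILMN_1719471, it gave 7.98, 7.97 and 7.95 with 059 and 7.79, 8.20 and 8.34 with 062. It gave 8.82, 8.66 and 8.76 with 543, and 8.48, 8.90 and 8.58 with 603. The MSH3 hairpin arrays lay below all MSH6 hairpin arrays, and the mean was 0.632-fold (log2 -0.66, SE 0.092, adjusted p = 0.0074). It passed in 3 of 4 pairs, 062 minus 543 giving adjusted p = 0.054. The call in the mean held with any 1 array left out and was lost with median scaling, on the values as deposited and without hairpin 059 or 603. On the bright probe, ILMN_2077130, the difference was -0.15 (adjusted p = 0.049), the arrays overlapped, and the call was lost in 11 of the 12 fits that left out 1 array, all but that without the B array of 603. Which probe reads the intact transcript was not tested, so how far MSH3 differed between the groups is uncertain.

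**Figure D1:**
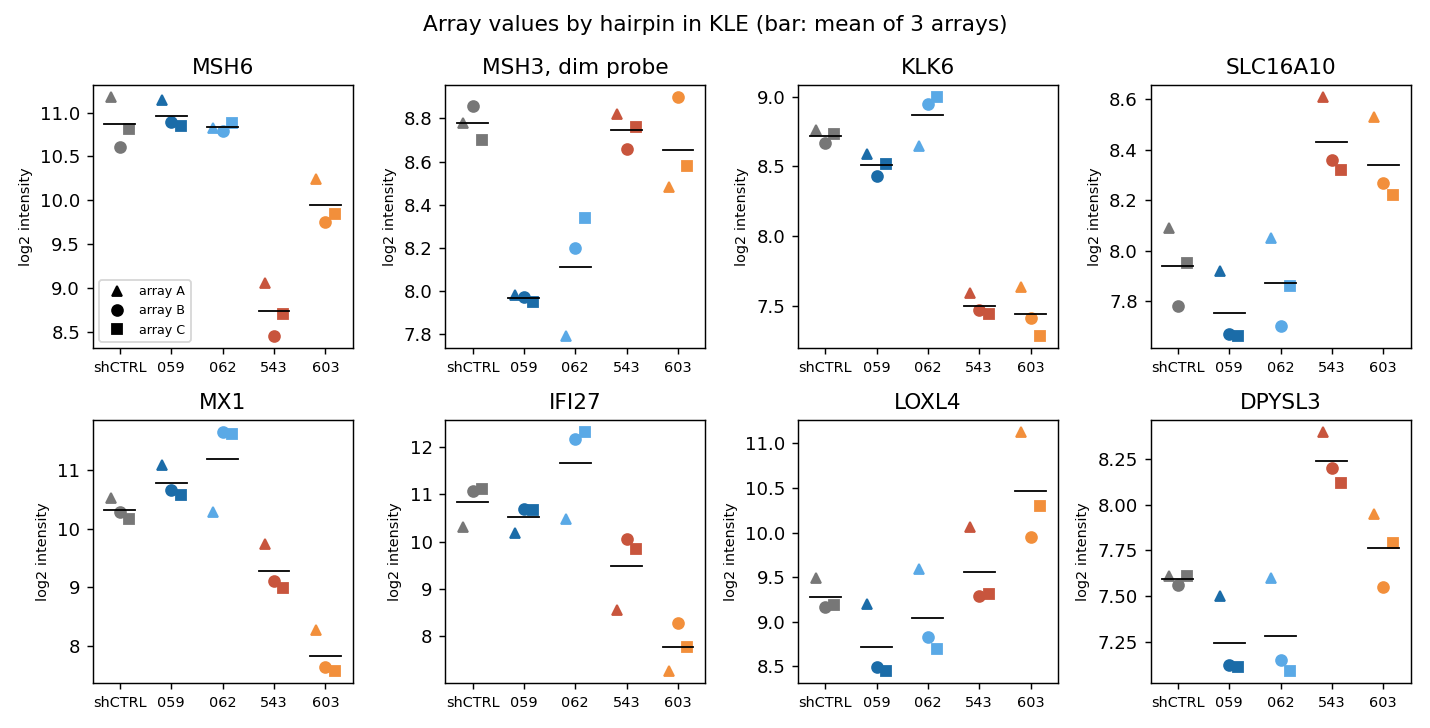
Log2 intensity (vertical axis) of 8 transcripts on the 15 KLE arrays, by hairpin (horizontal axis), with triangles for A, circles for B, squares for C and a bar at the mean of 3 arrays. MSH6 is lower on every array of 543 and 603, MSH3 by its dim probe is lower on every array of 059 and 062, and the A array of 062 lies below its B and C arrays for MX1 and IFI27.

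Across all genes, 894 of 20046 (4.46%) passed in the mean of the MSH3 hairpins against the mean of the MSH6 hairpins at an adjusted p under 0.05. Of these, 388 (1.94%) were higher and 506 (2.52%) lower with the MSH3 hairpins. The error of this comparison comes from arrays of the same hairpin and leaves out the difference between hairpins of the same target. Without the letter as a block 151 passed. With 1 array left out the count was 345 to 1488. It fell to 379 without 059 C, 437 without 062 B, 407 without 062 C, 392 without 543 B, 400 without 543 C and 345 without 603 C, and rose to 1488 without 062 A, the array with the largest residual SD (0.161).

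The 4 hairpin pairs gave very different counts. Between 059 and 543, 133 genes passed (0.663%), 47 higher (0.234%) and 86 lower (0.429%) with 059. Between 059 and 603, 493 passed (2.46%), 249 higher (1.24%) and 244 lower (1.22%). Between 062 and 543, 329 passed (1.64%), 146 higher (0.728%) and 183 lower (0.913%). Between 062 and 603, 1157 passed (5.77%), 583 higher (2.91%) and 574 lower (2.86%). Both pairs with 603 gave more calls than the pair of the same MSH3 hairpin with 543. Without the block the counts were 22, 86, 49 and 257 in the same order.

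Hairpins of the same target differed too. The MSH3 hairpins differed in 95 genes (0.474%), 46 higher (0.229%) and 49 lower (0.244%) with 059. The MSH6 hairpins differed in 345 (1.72%), 107 higher (0.534%) and 238 lower (1.19%) with 603. The median absolute log2 difference over all genes was 0.0568 between 059 and 062, 0.0564 between 603 and 543 and 0.0456 between the means of the targets. A target mean averages 6 arrays and a hairpin mean 3, so array noise is smaller in the last value. These values therefore do not tell whether hairpins or targets differed more. Of the 894 genes, 797 (89.1%) had the same sign in all 4 pairs, against 39.4% of all genes, and in 654 (73.2%) the difference between targets was larger than both differences between hairpins of the same target, against 27.2% of all genes. The same arrays chose these 894 genes, so the shares describe them and are no test.

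**Figure D2:**
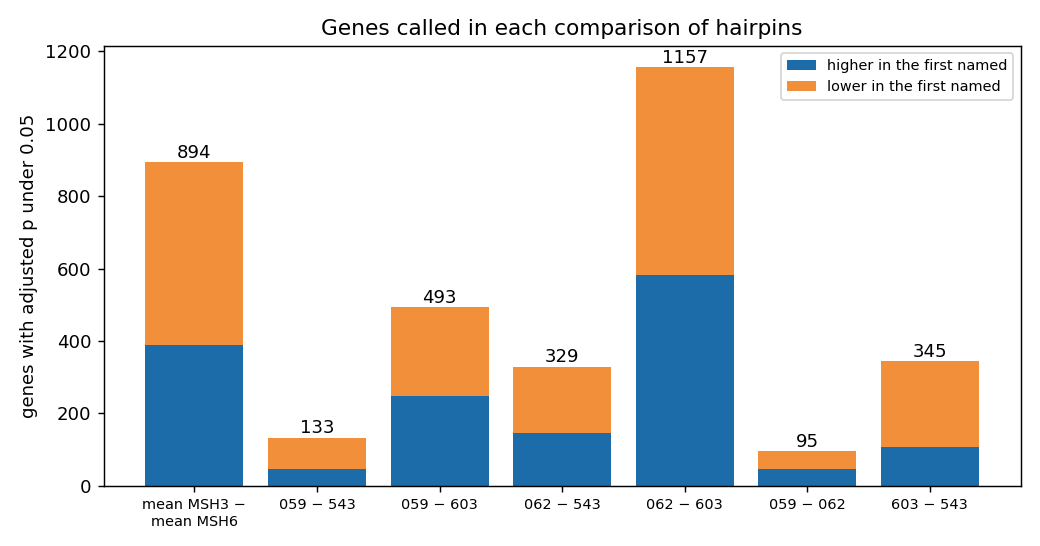
Number of genes with an adjusted p under 0.05 (vertical axis) in the mean comparison, the 4 hairpin pairs and the 2 comparisons of hairpins of the same target (horizontal axis), split into higher and lower in the first named. The pair 062 minus 603 has 1157 genes and 059 minus 543 has 133, while 603 minus 543 has 345.

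Pairs that share a hairpin share arrays, so only the pairs with no array in common were set against each other. Of the 47 genes higher in 059 minus 543, 18 (38.3%) were also called higher in 062 minus 603, which is 3.09% of the 583 there, and 5 were called lower. Of the 86 lower genes, 23 (26.7%) were called lower in 062 minus 603 (4.01% of 574) and 15 were called higher. Of all genes, 2.91% were called higher and 2.86% lower in 062 minus 603. The sign was the same there for 32 of the 47 (68.1%), beside 47.7% of all genes with that sign. It was the same for 46 of the 86 (53.5%), close to the 52.3% of all genes with that sign. For the other 2 pairs, 44 of 249 genes higher in 059 minus 603 (17.7%) were called higher in 062 minus 543 (30.1% of 146) and 14 lower. Of 244 lower genes, 33 (13.5%) were called lower (18% of 183) and 1 higher. Of all genes, 0.728% were called higher and 0.913% lower in 062 minus 543. The sign was the same there for 158 of the 249 (63.5%), beside 48.5% of all genes with that sign. It was the same for 192 of the 244 (78.7%), beside 51.5%. Across all genes, which are not independent replicates, the differences of the pairs correlated with r = 0.182 for the first and 0.348 for the second. These pairs still share the letters of the arrays and the spread estimated in the fit.

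**Figure D3:**
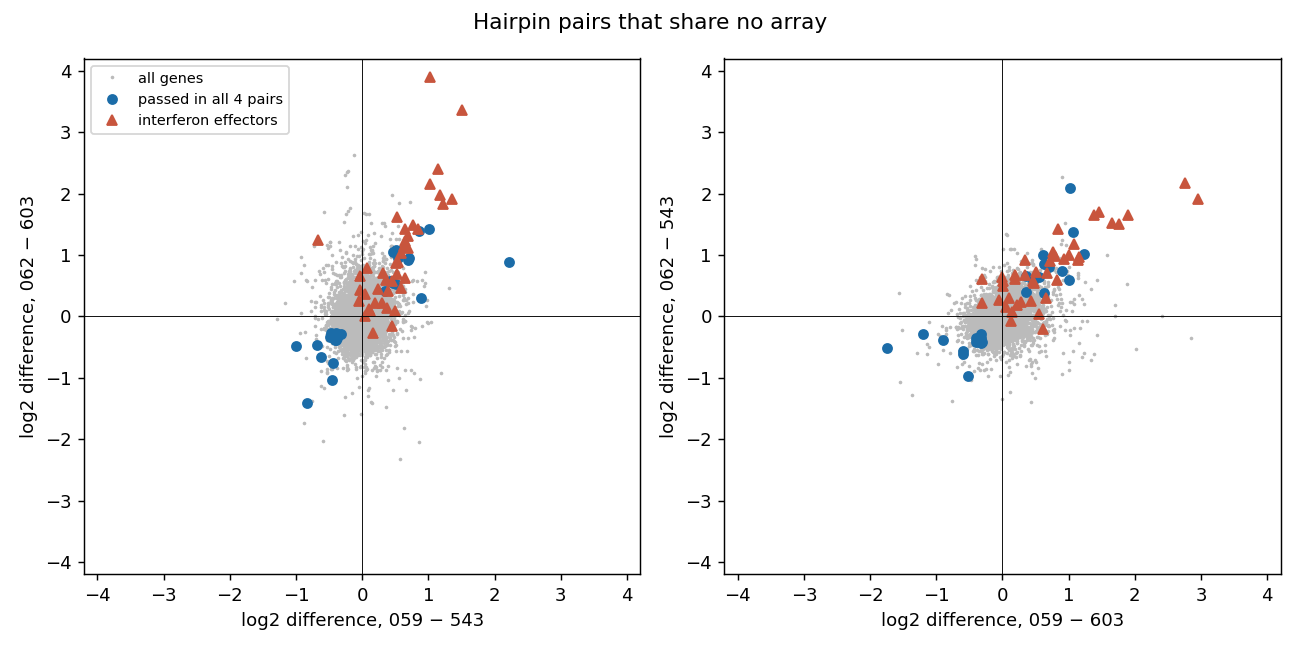
Log2 difference of every gene (grey points) in pairs of hairpins that share no array: 059 minus 543 against 062 minus 603 on the left, 059 minus 603 against 062 minus 543 on the right. Circles are the 28 genes that passed in all 4 pairs and triangles the interferon-stimulated effector genes, most of which lie in the upper right of both panels.

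In all 4 pairs 28 genes passed with the same sign (0.14%), 13 higher (0.0649%) and 15 lower (0.0748%) with the MSH3 hairpins. Without the block the count was 3. For each of the 28, the MSH3 and MSH6 hairpin arrays did not overlap within any letter, and over all 12 arrays 17 did not overlap. Of all 20046 genes, 853 did not overlap within any letter and 190 did not over all arrays. The same arrays chose the 28, so their counts are a description and no test. Their absolute mean differences ran from 0.31 to 1.56 on the log2 scale.

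KLK6, a secreted serine protease of the kallikrein family, ranked first of the 13 higher genes by its smallest pair difference, ahead of MSH6. It gave 8.59, 8.43 and 8.52 with 059 and 8.65, 8.95 and 9.00 with 062. It gave 7.59, 7.47 and 7.44 with 543 and 7.63, 7.41 and 7.28 with 603. The lowest MSH3 hairpin array lay well above the highest MSH6 hairpin array, and the hairpins of MSH6 were alike. KLK6 was 2.33-fold higher in the mean (log2 1.22, SE 0.079, adjusted p = 0.00028) and 1.01 to 1.43 higher on the log2 scale in the pairs. Its second probe lay at background (mean level 6.88) and gave a difference near 0.

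APOE, which encodes a lipoprotein of lipid transport, gave 7.80, 8.10 and 8.29 with 059 and 7.97, 8.27 and 8.16 with 062. It gave 7.33, 7.72 and 7.60 with 543 and 7.02, 7.18 and 6.95 with 603, where it lay near background. It was 1.74-fold higher with the MSH3 hairpins (log2 0.80, SE 0.063, adjusted p = 0.00062). The log2 differences were 1.01 and 1.08 from 603 and 0.51 and 0.59 from 543.

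CAMK2N1 encodes an inhibitor of the calcium- and calmodulin-dependent kinase CaMKII. It gave 8.13, 8.30 and 7.97 with 059, 8.29, 8.54 and 8.47 with 062, 7.52, 7.44 and 7.36 with 543 and 7.56, 7.55 and 7.44 with 603. The groups did not overlap, and it was 1.75-fold higher with the MSH3 hairpins (log2 0.81, SE 0.055, adjusted p = 0.00037). MAP4K1, a kinase upstream of JNK, was 1.44-fold higher (log2 0.52), and SH3BGRL3, a small protein of the thioredoxin fold, 1.67-fold (log2 0.74, SE 0.065, adjusted p = 0.0011), both with overlap over the 12 arrays but none within a letter.

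SMARCA1, an ATPase of the ISWI chromatin remodellers, was higher by 1.69-fold (log2 0.75, SE 0.056, adjusted p = 0.00049), its arrays at 8.54 to 9.20 with the MSH3 hairpins and 7.73 to 8.41 with the MSH6 hairpins, and its second probe gave 0.45. PFKP, a phosphofructokinase of glycolysis, was 1.41-fold higher (log2 0.50), and ESD, esterase D, 1.30-fold (log2 0.37). BTG3, of the antiproliferative BTG and TOB family, was higher by 1.52-fold (log2 0.60, SE 0.043, adjusted p = 0.00042). Its second probe gave 0.64. BTG3 differed between the MSH6 hairpins, 603 lying 0.34 above 543 (adjusted p = 0.031).

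Among the 15 lower genes, SLC16A10, a transporter of aromatic amino acids, ranked after LOXL4 and DPYSL3 by its smallest pair difference. It gave 7.92, 7.67 and 7.66 with 059 and 8.05, 7.70 and 7.86 with 062. It gave 8.61, 8.36 and 8.32 with 543 and 8.53, 8.27 and 8.22 with 603. The arrays did not overlap, and the A array was the highest of each hairpin. The mean was 0.670-fold (log2 -0.58, SE 0.035, adjusted p = 0.0002), and the pairs ran from -0.68 to -0.47.

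LOXL4, a lysyl oxidase-like enzyme that crosslinks collagen, had the largest mean fall of the 15. It gave 9.20, 8.49 and 8.45 with 059, 9.59, 8.83 and 8.70 with 062, 10.06, 9.29 and 9.31 with 543 and 11.13, 9.95 and 10.30 with 603. The A arrays were the highest of each hairpin, and the groups overlapped over all arrays but not within a letter. LOXL4 was 0.457-fold (log2 -1.13, SE 0.064, adjusted p = 0.00014), while 603 lay 0.91 above 543 (adjusted p = 0.0018).

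DPYSL3, a regulator of the cytoskeleton in growing cells, gave 7.50, 7.12 and 7.11 with 059, 7.60, 7.15 and 7.09 with 062, 8.40, 8.20 and 8.12 with 543 and 7.95, 7.55 and 7.79 with 603. The highest MSH3 hairpin array (062 A) lay above the lowest MSH6 hairpin array (603 B), with no overlap within a letter. Here 543 was the higher of the MSH6 hairpins (603 minus 543 -0.48, adjusted p = 0.016), and the mean was 0.599-fold (log2 -0.74, SE 0.052, adjusted p = 0.0004). WNT10A, a secreted ligand of the WNT family, gave 8.92 to 9.17 on the MSH3 hairpin arrays and 9.32 to 10.23 on the MSH6 hairpin arrays, with no overlap. It was 0.597-fold (log2 -0.75, SE 0.035, adjusted p = 6.3e-05), and 603 lay 0.76 above 543 (adjusted p = 0.00031). HSPB8, a small heat shock protein, was lower (log2 -0.64, SE 0.048, adjusted p = 0.00052), but on 059 B, 059 C and 062 C it gave 7.01, 6.84 and 7.01, at about the array median near background, so the size of the difference is uncertain.

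The other lower genes had differences from -0.60 to -0.31. DDX39A, an RNA helicase of messenger RNA export, was at -0.60 (SE 0.048, adjusted p = 0.00067). They also hold NUP88, a nucleoporin (-0.41), XPO5, which exports precursor microRNAs (-0.37), PUS3, a pseudouridine synthase (-0.37), and the small nucleolar RNA SNORD16 (-0.38). The ubiquitin ligase UBE3C was at -0.38, the solute carrier SLC35F2 at -0.40, the atlastin GTPase ATL3 at -0.33, CCDC85A at -0.34 and the forkhead factor FOXR2 at -0.31. Of 14 genes of small RNA processing, XPO5 alone passed in the mean comparison, where 4.46% of all genes did. The list's median was -0.0845, beside -0.00427 for all genes.

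**Figure D4:**
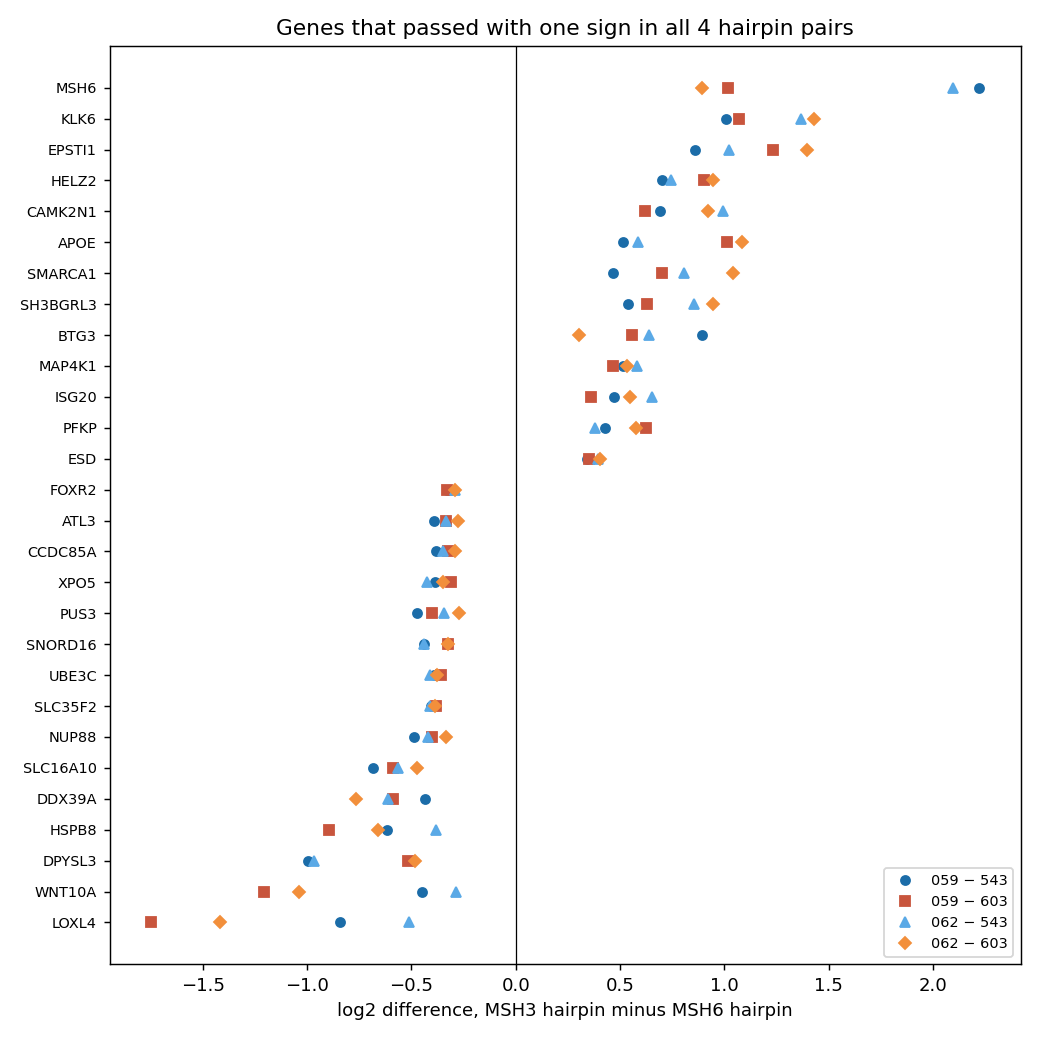
Log2 difference (horizontal axis) in each of the 4 hairpin pairs for the 28 genes (vertical axis) that passed in all of them, ordered by the mean. UBE3C, ESD and SLC35F2 have nearly equal values in the 4 pairs, whereas MSH6, LOXL4 and WNT10A are spread by the MSH6 hairpin used.

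Several values bear on how firm these 28 genes are. All 28 kept their sign in the mean comparison and passed in it in each of the 12 fits that left out 1 array. Passing in all 4 pairs was less stable. Among all genes the count was 78 without 062 A, 24 without 059 A, 19 without 543 A and 4 without 543 B or 543 C. It was 13 without 059 B, 7 without 059 C, 6 without 062 B, 7 without 062 C, 17 without 603 A, 16 without 603 B and 8 without 603 C. Some of these counts include genes from outside the 28. Of the 28, 26 passed in all 4 pairs without 062 A, 13 without 059 A and 11 without 543 A. Without 543 B or 543 C, 4 of them passed. It was 11 without 059 B, 7 without 059 C and 6 without 062 B or 062 C. Leaving out 603 A or 603 B kept 14, and leaving out 603 C kept 8. MSH6 and SLC16A10 passed in all 4 pairs in each of the 12 fits, KLK6, CAMK2N1 and DPYSL3 in 9, BTG3 in 8 and ATL3 in 0. Of 10 further probes of these genes, 9 had the same sign and 7 passed, and the 8 above the array median all had the same sign.

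The shCTRL arrays, which no test here used, are set beside the difference. In 23 of the 28 genes the shCTRL mean lay between the means of the targets, being nearer the MSH3 hairpins for 10 of 13 higher and 7 of 15 lower genes. For all genes it lay between in 6284 of 20046 and was nearer the MSH3 hairpins in 10557. Genes chosen for a large difference leave a wider gap between the target means, so these counts are a description and no test. For KLK6 the shCTRL mean lay 0.03 above the MSH3 hairpins and 1.25 above the MSH6 hairpins, and for ESD 0.01 and 0.38 above. SNORD16 and UBE3C likewise lay within 0.05 of the MSH3 hairpins. For XPO5 and FOXR2 it lay closer to the MSH6 hairpins (-0.06 and -0.10 from them). For EPSTI1, SH3BGRL3 and MAP4K1 the shCTRL mean minus that of the MSH3 hairpins was -0.64, -0.46 and -0.30, and minus that of the MSH6 hairpins 0.48, 0.28 and 0.22. HSPB8 and APOE were highest with shCTRL.

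Of the gene lists read, the interferon-stimulated effectors had the median farthest from 0. Interferons signal through receptors and JAK kinases to a transcription factor complex that holds IRF9 and binds a repeated GAAA element in the promoters of antiviral genes. The element, searched as GAAA, any 2 bases and GAAA again, on both strands from 250 bases before to 50 after the transcription start, was present in 996 of 27305 RefSeq promoters (3.65%). It was present in 18 of the 23 effector genes that were higher and matched a promoter (78.3%), and in 8 of 13 that did not pass (61.5%). Of the promoters of all genes called higher, 24 of 316 held it (7.59%). These 24 include the 18 of the effector genes, so this share mostly repeats theirs. Of the promoters of genes called lower, 10 of 425 held it (2.35%), beside 3.16% for genes read on the arrays. A match is a description and says nothing about binding. The 60 bases around the first match, upstream of the start, are given for 5 of the effector genes: the 3 with the largest differences whose match lies upstream, and the 2 that passed in all 4 pairs. Capitals mark the element on either strand, overlapping copies running together. RefSeq coordinates are of build GRCh38.p14.
IFI27 (chr14:94110603-94110662, plus strand): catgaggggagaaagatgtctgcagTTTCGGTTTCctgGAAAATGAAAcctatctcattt
IFI44L (chr1:78620259-78620318, plus strand): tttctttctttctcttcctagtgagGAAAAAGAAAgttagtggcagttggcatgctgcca
ISG15 (chr1:1013359-1013418, plus strand): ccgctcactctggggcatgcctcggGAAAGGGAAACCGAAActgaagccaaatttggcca
EPSTI1 (chr13:42992257-42992316, minus strand): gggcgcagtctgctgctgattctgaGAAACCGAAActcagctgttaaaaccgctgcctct
ISG20 (chr15:88638922-88638981, plus strand): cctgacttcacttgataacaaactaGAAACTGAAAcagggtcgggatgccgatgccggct

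Of 43 interferon-stimulated effector genes read, 25 passed as higher with the MSH3 hairpins and 0 as lower in limma (36 had an unadjusted p under 0.05). Of all 20046 genes, 1.94% were called higher and 3643 had an unadjusted p under 0.05. The median log2 difference of the 43 was 0.523, beside -0.00427 for all genes, and 42 of 43 were positive. Earlier results of these data already showed this group, so the count is no independent evidence. In the pairs, 2 were higher and 1 lower between 059 and 543 (median 0.503), 14 and 0 between 059 and 603 (0.553), 12 and 0 between 062 and 543 (0.668), and 25 and 0 between 062 and 603 (0.708). Of all genes, 0.234%, 1.24%, 0.728% and 2.91% were called higher in these pairs and 0.429%, 1.22%, 0.913% and 2.86% lower. The medians were thus alike in size while the counts were not. EPSTI1 and ISG20 passed in all 4 pairs. GBP2, singled out after its value was seen, was the lower gene in 059 minus 543 (-0.66) and was higher in 062 minus 603 (1.25).

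MX1, an antiviral GTPase, gave 11.09, 10.66 and 10.58 with 059 and 10.29, 11.66 and 11.62 with 062. It gave 9.74, 9.10 and 8.98 with 543 and 8.27, 7.64 and 7.57 with 603. The groups did not overlap, 603 lay below 543 on each letter, and the A array of 062 was the lowest of the MSH3 hairpin arrays. MX1 was higher by 5.40-fold (log2 2.43, SE 0.27, adjusted p = 0.0028). It passed in 3 pairs but not between 059 and 543 (adjusted p = 0.15).

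IFI27, a small membrane protein induced by type I interferon, gave 10.18, 10.69 and 10.67 with 059 and 10.47, 12.17 and 12.33 with 062. It gave 8.56, 10.06 and 9.85 with 543 and 7.26, 8.27 and 7.76 with 603. The arrays did not overlap, 059 A lying just above 543 B. The fold for IFI27 was 5.51 (log2 2.46, SE 0.17, adjusted p = 0.00039), and 603 lay 1.73 below 543 (adjusted p = 0.01).

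ISG15, a ubiquitin-like modifier, gave 11.35, 11.37 and 11.48 with 059, 10.54, 12.01 and 12.08 with 062, 9.33, 10.44 and 10.38 with 543 and 9.33, 9.89 and 9.68 with 603. The MSH3 hairpins were 3.10-fold higher (log2 1.63, SE 0.18, limma adjusted p = 0.0026), without overlap and without a called difference between hairpins of the same target. IFI44L was 3.41-fold higher (log2 1.77, SE 0.21), the membrane restriction factor IFITM1 3.02-fold (log2 1.59, SE 0.16) and OAS2, which makes 2-5A, the activator of RNase L, 2.98-fold (log2 1.58, SE 0.25, adjusted p = 0.013). OAS2 passed in 1 of the 4 pairs, and IFI44L and IFITM1 in 3. Further probes of OAS2, dimmer at 6.91 to 7.13, gave 0.19 to 0.43 and did not pass.

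EPSTI1, an interferon-inducible gene of epithelial cells, gave 8.61, 8.53 and 8.58 with 059, 8.27, 8.97 and 8.97 with 062, 7.79, 7.69 and 7.66 with 543 and 7.29, 7.38 and 7.34 with 603. It was 2.19-fold higher (log2 1.13, SE 0.1, adjusted p = 0.0013). ISG20, an RNA exonuclease, gave 7.98 to 8.32 on the MSH3 hairpin arrays and 7.37 to 7.82 on the MSH6 hairpin arrays and was 1.42-fold higher (log2 0.51, SE 0.049, adjusted p = 0.0014). HELZ2, a helicase that was not on the effector list, was higher by 1.77-fold (log2 0.82, SE 0.085, adjusted p = 0.0021) and passed in all 4 pairs.

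The effector list moved with single libraries. Its median deviation from the mean of the 12 arrays was 0.16 to 0.27 on the 059 arrays, -0.04 on 062 A but 0.71 and 0.61 on 062 B and C, -0.25 to -0.22 on the 543 arrays and -0.42 to -0.36 on the 603 arrays. On the shCTRL arrays it was -0.02 to 0.01. By letter, the median difference between the targets was 0.372 in A, 0.615 in B and 0.681 in C. With 1 array left out, 13 to 35 of the 43 passed, with 16 without 062 B, 15 without 543 B, 16 without 543 C, 13 without 603 C and 35 without 062 A. Without hairpin 603, 3 passed at a median of 0.569, and without hairpin 543, 19 passed at 0.597. Without the block 14 passed, with median scaling 16 and on the deposited values 11, with 0 lower each time. The calls of MX1, IFI44L, ISG15, IFITM1, OAS2 and EPSTI1 were lost without hairpin 603. In 16 of the 25 that passed, the shCTRL mean was nearer the MSH3 hairpins, and in 24 it lay between the targets. For all 20046 genes these counts were 10557 and 6284. The 25 were chosen for a difference between the targets, so their counts are a description and no test.

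**Figure D5:**
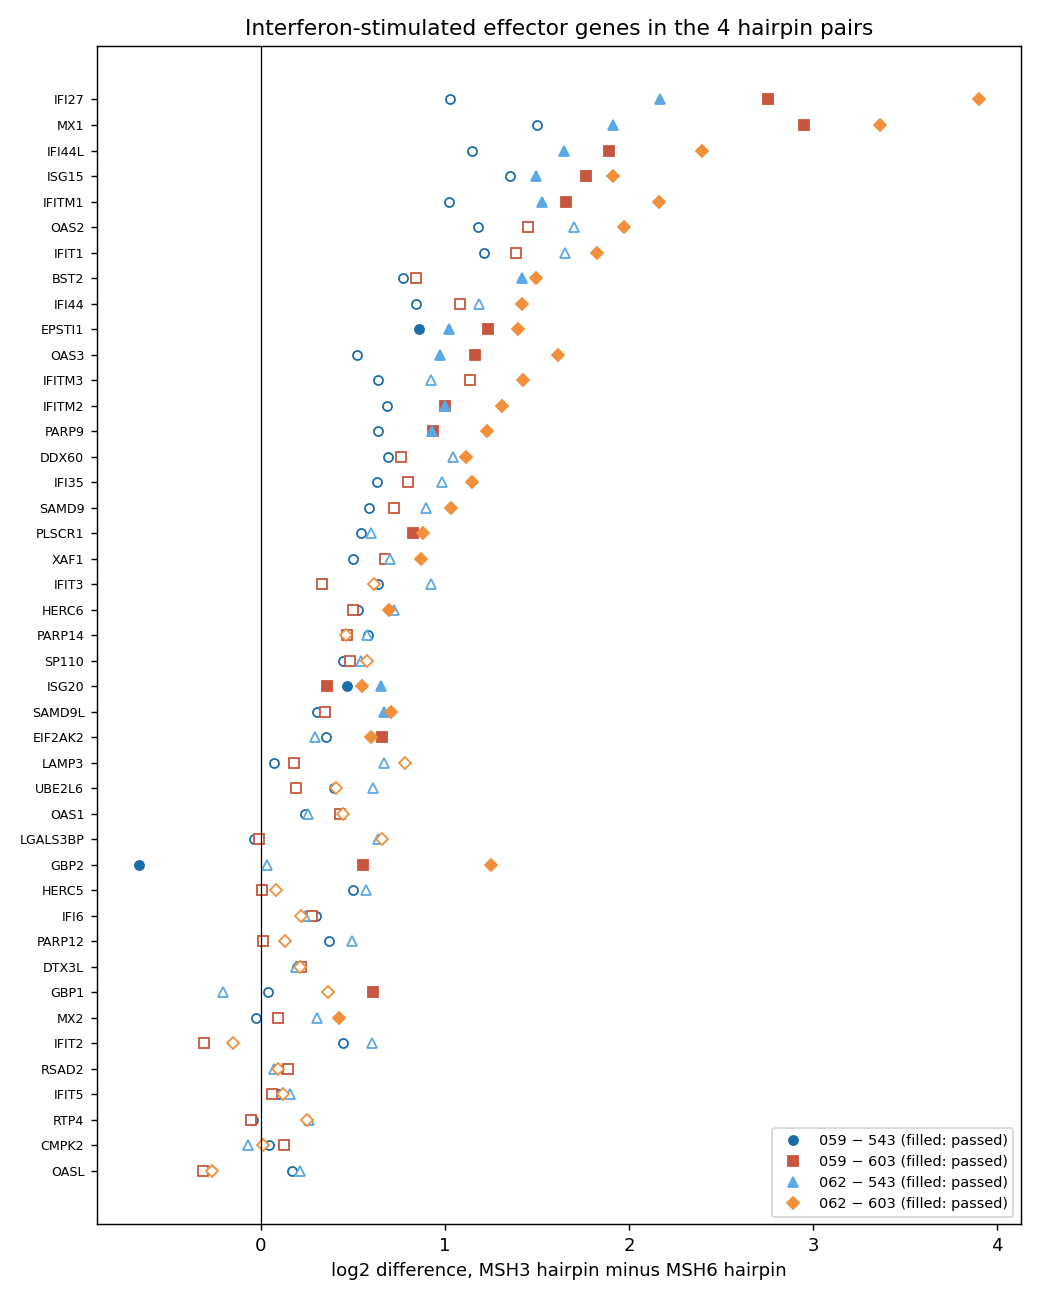
Log2 difference (horizontal axis) of the 43 interferon-stimulated effector genes (vertical axis, ordered by the mean) in the 4 hairpin pairs, filled where the pair passed. IFI27 reaches 3.90 in 062 minus 603, EPSTI1 and ISG20 are filled in all 4 pairs, and GBP2 lies at -0.66 in 059 minus 543.

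Upstream of the effectors, 2 of 16 interferon signalling genes were higher and 1 lower (median 0.0828), where 1.94% of all genes were called higher and 2.52% lower. IRF9, the DNA-binding subunit of the interferon-activated factor, gave 10.06, 10.07 and 10.30 with 059, 9.96, 10.72 and 10.59 with 062, 9.54, 9.28 and 9.46 with 543 and 8.35, 8.56 and 8.78 with 603. The arrays did not overlap. It was 2.44-fold higher (log2 1.29, SE 0.11, adjusted p = 0.00082), a call lost without hairpin 603. It did not pass between 059 and 543 (0.72, adjusted p = 0.093), and 603 lay 0.86 below 543 (adjusted p = 0.028). USP18, which removes ISG15 from proteins and dampens the receptor, was 1.42-fold higher (log2 0.50, adjusted p = 0.022), and IFNGR1, a chain of the interferon gamma receptor, 0.773-fold (log2 -0.37, adjusted p = 0.018). The call of USP18 held in 4 of 12 fits with 1 array left out, and that of IFNGR1 was lost without 059 C, 062 C or 603 C.

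Of 18 nucleic acid sensor genes 1 was higher and 0 lower (median 0.0311), and 7 had an unadjusted p under 0.05 in limma. Of all 20046 genes, 1.94% were called higher and 2.52% lower, and 3643 had an unadjusted p under 0.05. IFI16, a sensor of DNA, was at log2 0.80 (adjusted p = 0.042), with 0.10 in A against 1.12 in B and 1.17 in C, and kept its call in 3 of 12 fits with 1 array left out. The RNA sensors IFIH1 (log2 0.64, adjusted p = 0.051) and RIGI (0.27, adjusted p = 0.07) and the adaptor STING1 (0.21, adjusted p = 0.059) did not pass. Of 19 antigen presentation genes 0 passed in either direction in limma (median 0.129), and 6 had an unadjusted p under 0.05.

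Some genes passed in the mean through 1 hairpin. SPOCK2, a matrix proteoglycan, was 2.38-fold higher with the MSH3 hairpins in the mean (log2 1.25, SE 0.17, adjusted p = 0.0076). It gave 12.93, 12.33 and 12.31 with 059, 11.86, 12.53 and 12.52 with 062, 13.15, 12.45 and 12.34 with 543, but 9.93, 9.50 and 9.60 with 603. Against 543 the differences were -0.12 and -0.35, so the call rests on 603 and its sign turned without that hairpin (-0.23). The contractile genes ACTA2, MYL9 and TPM2 had the same form, with 603 minus 543 at -1.68, -0.56 and -1.78. ACTA2, smooth muscle actin, differed by 1.70 and 1.69 from 603 and by 0.02 and 0.01 from 543. The 3 were the only genes of 23 on the mesenchymal list that passed in the mean, where 4.46% of all genes did. Without 603 none of the 3 calls remained and TPM2 had the opposite sign (-0.33).

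PCDH7, a protocadherin of cell adhesion, had its difference from 543 instead. It gave 7.91, 7.40 and 7.43 with 059, 7.74, 7.43 and 7.43 with 062, 9.08, 8.74 and 8.80 with 543 and 7.84, 7.47 and 7.43 with 603. The mean difference was -0.67 (SE 0.036, adjusted p = 0.00014), with -1.29 and -1.34 from 543 and 0.00 and -0.05 from 603. A second probe of PCDH7 (mean level 7.48) gave -0.18 in the mean (limma adjusted p = 0.25) and passed in 1 pair. Its differences were -0.62 and -0.38 from 543 and 0.01 and 0.25 from 603. AGR2, a protein disulfide isomerase of secretory epithelium, was at -1.17 and -1.39 from 543 and at 0.43 and 0.22 from 603, where its signs were opposite. PTGDS, a prostaglandin D2 synthase, was higher with the MSH3 hairpins than with either MSH6 hairpin, by 2.22 and 2.26 from 543 and by 0.89 and 0.94 from 603 (mean 2.98-fold, log2 1.58, SE 0.15, adjusted p = 0.0015). Of these, 059 against 603 did not pass (adjusted p = 0.081). The call in the mean was lost without the block and without hairpin 543, as was that of PCDH7 without 543.

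Among matrix and growth factor genes, IGFBP5, which binds insulin-like growth factors, had the largest fall of all genes. It gave 10.20, 9.56 and 9.49 with 059, 9.37, 8.96 and 8.89 with 062, 10.31, 10.32 and 10.40 with 543 and 11.11, 11.22 and 11.01 with 603. The groups did not overlap, and 603 lay 0.76 above 543 (adjusted p = 0.038), while 059 and 062 differed by 0.67 without passing (adjusted p = 0.11). IGFBP5 was 0.401-fold (log2 -1.32, SE 0.1, adjusted p = 0.00055) and did not pass between 059 and 543 (-0.60, adjusted p = 0.14). IGFBP4 was higher (log2 0.55, adjusted p = 0.0072), and IGF1, at 7.08 close to background, lower (-0.18, adjusted p = 0.026). These 3 are the calls among 15 genes of the IGF system, where 4.46% of all genes passed.

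SULF1, an extracellular sulfatase acting on heparan sulfate chains, gave 8.92, 8.28 and 8.27 with 059, 7.71, 7.77 and 8.12 with 062, 9.53, 9.09 and 9.13 with 543 and 9.32, 9.08 and 9.34 with 603. The MSH6 hairpins were nearly equal and the groups did not overlap. It was 0.475-fold (log2 -1.07, SE 0.11, adjusted p = 0.0024), and both pairs with 062 passed. Neither pair with 059 did (-0.76 each, adjusted p = 0.091 from 543 and at the threshold, without passing, from 603). Of 19 heparan sulfate genes, SULF1 and the core protein SDC4 (-0.36, adjusted p = 0.038) were lower and 0 higher, where 2.52% and 1.94% of all genes were called. SDC4 passed in 1 pair, was at 0.04 in 059 minus 543, kept its call in 3 of 12 fits with 1 array left out and lost it without the block. LAMA4, a laminin chain, was 0.520-fold (log2 -0.94, SE 0.1) and differed from 603 by -1.29 and -1.61 but from 543 by -0.28 and -0.59. LYPD1 was 0.402-fold (log2 -1.32, SE 0.24, adjusted p = 0.021), and its call was lost without 059 B, 059 C, 543 B, 543 C, 603 A or 603 C. Without the block the calls of LAMA4 and LYPD1 were lost.

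Of 28 collagen and matrix genes, 6 were higher and 3 lower (median 0.0557), beside 1.94% and 2.52% of all genes. COL3A1, a fibrillar collagen, was 2.31-fold higher (log2 1.21, SE 0.11, adjusted p = 0.0012), but with differences of 2.41 and 1.97 from 603 and of 0.44 and 0.00 from 543. COL4A1, of basement membranes, was 0.659-fold, with -1.11 and -1.29 from 603 and 0.09 and -0.09 from 543. THBS1, a matrix glycoprotein that binds latent TGF-beta, was 0.640-fold in the mean (log2 -0.64, SE 0.1, adjusted p = 0.013) with pairs from -0.77 to -0.52, of which 062 minus 603 passed. COL16A1 had opposite signs for the MSH3 hairpins against 543 (0.57 with 059 and -0.61 with 062), neither past the threshold. The retinal dehydrogenase ALDH1A3 did not pass in the mean (-0.60, adjusted p = 0.29) and passed in 062 minus 603 (-2.05, adjusted p = 0.015). The bone morphogenetic protein gene BMP6 was 0.545-fold (log2 -0.87, adjusted p = 0.015), a call lost without 059 C or 543 C.

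Among 21 kallikreins and other serine proteases and inhibitors, 3 were higher and 1 lower (median 0.0972), beside 1.94% and 2.52% of all genes. KLK5, a skin kallikrein, was higher by 2.01-fold (log2 1.01, SE 0.2, adjusted p = 0.027) and KLK10 1.20-fold (0.27, adjusted p = 0.028), with calls kept in 4 and 5 of 12 fits with 1 array left out. KLK10 lay near background (mean level 7.14) and passed in 0 of the 4 pairs. Its second probe, at 6.97, gave 0.07 (limma adjusted p = 0.31). PLAT, tissue plasminogen activator, was 0.579-fold (log2 -0.79, SE 0.071, adjusted p = 0.0012), with -1.13 and -1.32 from 603 and -0.26 and -0.44 from 543. MSLN and MUC1, surface proteins of Mullerian epithelium, were the 2 of 17 genes of that list to pass, both higher (log2 0.76 and 0.37), and kept their calls in 4 and 2 of the 12 fits. Further probes of MUC1, at 7.88 and 7.21, gave 0.25 and 0.18 and did not pass.

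Of 28 cancer/testis genes, normally silent outside the germ line, 9 were higher and 1 lower (median 0.268), beside 1.94% and 2.52% of all genes. The VCX genes of the X chromosome differed both between the MSH3 and between the MSH6 hairpins. VCX3A gave 8.50, 8.05 and 8.05 with 059, 9.49, 9.85 and 9.63 with 062, 8.08, 8.71 and 8.46 with 543 and 7.22, 7.47 and 7.20 with 603. Hairpin 062 was highest and 603 lowest on each letter, and 059 and 543 overlapped. Its mean difference was 1.07 (SE 0.11, adjusted p = 0.0026), from -0.22 (059 minus 543) to 2.36 (062 minus 603). VCX3B, VCX and VCX2 followed it, and their transcripts are nearly identical, so the signals of the 4 copies cannot be told apart. MAGEC1 was the lower gene (-0.63, SE 0.041, adjusted p = 0.00028), with 603 1.10 above 543. In 059 minus 543, 0 of the 28 passed in limma (median -0.0702), and 4 had an unadjusted p under 0.05, beside 2326 of all 20046 genes. In 062 minus 603, 17 were higher and 1 lower, where 2.91% and 2.86% of all genes were called. Only 3 of the 28 had the same sign in all 4 pairs.

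Of 29 E2F and replication genes 0 were higher and 4 lower (median -0.13), and of 29 G2 and mitosis genes 0 and 4 (median -0.161), where 2.52% of all genes were called lower. In the pairs 059 minus 543, 059 minus 603, 062 minus 543 and 062 minus 603, the G2 and mitosis list had 2, 3, 0 and 1 lower genes, with medians of -0.261, -0.0883, -0.145 and -0.0373. Of all genes, 0.429%, 1.22%, 0.913% and 2.86% were called lower in these pairs. CCNA2, the cyclin of S phase and G2, gave 10.07 to 10.53 on the MSH3 hairpin arrays and 10.66 to 10.94 on the MSH6 hairpin arrays, without overlap, and was 0.731-fold (log2 -0.45, SE 0.049, adjusted p = 0.0028). It kept its call with any 1 array left out and lost it with median scaling, on the values as deposited and without hairpin 603. RRM2, a ribonucleotide reductase subunit (-0.43), FEN1, a flap nuclease (-0.32), and the kinase gene AURKB (-0.39) kept theirs in 4, 6 and 5 of the 12 fits, and MCM3, of the replicative helicase (-0.32), lost its call without 603 C. TPX2, AURKA and POLE2 passed at -0.23, -0.23 and -0.17, with calls kept in 4, 3 and 1 of the 12 fits. Without the block these 7 calls, all but that of CCNA2, were lost. A second probe of AURKA (mean level 10.17) gave -0.07 (limma adjusted p = 0.62), while those of FEN1 and MCM3 gave -0.29 and -0.33 and passed.

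Of 25 proteasome genes 0 were higher and 6 lower (median -0.137), beside 1.94% and 2.52% of all genes. In the same order of pairs 0, 0, 1 and 4 were lower, beside 0.429%, 1.22%, 0.913% and 2.86% of all genes. The 6 are PSMD12 (-0.34), PSMC4 (-0.33), PSMD11 (-0.30), PSMC1 (-0.29), PSMA4 (-0.22) and PSMD2 (-0.20), subunits of the regulatory particle but for PSMA4, which belongs to the core. Adjusted p lay between 0.023 and 0.046, the calls held in 1 to 8 of the 12 fits with 1 array left out, and without the block each was lost. A second bright probe of PSMA4 (mean level 10.08) gave -0.03 (limma adjusted p = 0.96), whereas further bright probes gave -0.46 and -0.38 for PSMC4 and -0.33 for PSMC1.

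In the mismatch repair list itself, 1 of 24 genes was higher, MSH6, and 4 were lower (median -0.0559), where 1.94% and 2.52% of all genes were called. Beside MSH3 by its bright probe the lower genes are RFC5 (-0.32, SE 0.047, adjusted p = 0.0092) and RFC1 (-0.27, adjusted p = 0.032), of the clamp loader, and the exonuclease gene EXO1 (-0.32, adjusted p = 0.038). RFC5 kept its call with any 1 array left out, and RFC1 and EXO1 in 4 and 3 of 12 fits. Without the block the 3 did not pass. A second probe of RFC1 (mean level 7.76) gave -0.02 (limma adjusted p = 0.96), and that of RFC5 lay at background. Further probes of EXO1, at 7.44 and 6.88, gave -0.19 and -0.11 and did not pass. FANCI was the 1 of 27 break repair genes to pass (-0.18, adjusted p = 0.049), and its call held in 1 of 12 fits.

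Elsewhere few listed genes passed in the mean. The p53 targets (23 read), ribosomal protein genes (32), unfolded protein and ATF4 genes (17), epithelial junction genes (22) and basal keratin genes (13) had 0 calls in the mean in limma. At an unadjusted p under 0.05 in limma they had 8, 14, 1, 2 and 6 genes, beside 3643 of all 20046. At the adjusted threshold 4.46% of all genes passed in the mean. The lists of cholesterol synthesis, glycolysis, respiratory complexes and NF-kB had 1 or 2: LSS higher (0.53), PFKP higher and the glucose transporter SLC2A1 lower (-0.49), UQCRC2 higher (0.53) and NFKB1 lower (-0.25). NFKB1 passed in 0 pairs and kept its call in 1 of 12 fits with 1 array left out, and without the block none of LSS, SLC2A1, UQCRC2 and NFKB1 passed. LSS differed from 603 by 0.96 and 1.06 and from 543 by 0.00 and 0.10. The letters differed most for the respiratory complexes, with median differences between the targets of 0.496 in A, -0.053 in B and 0.031 in C. For the ribosomal protein genes these were 0.271, 0.034 and 0.070, and for the NF-kB list 0.129, 0.009 and -0.140. The ribosomal protein genes had a median of 0.142 in the mean comparison, beside -0.00427 for all genes. Of the 32, 20 had positive differences in all 4 pairs and 2 negative ones, beside 3603 and 4303 of all 20046 genes. In 062 minus 603, 4 of the 32 were called higher and 0 lower, where 2.91% and 2.86% of all genes were. In 059 minus 543, 1 was called lower. Probes with no gene name gave 184 calls of 17202 (1.07%), 3 of them in all 4 pairs.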

How the data were processed

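Illumina expression BeadChips measured the RNA of cultured cells. The deposited table gives each probe's intensity, on a linear scale. GenomeStudio is named per the submitters' processing notes, and no version is given. Its lowest value was 66.27, so background had not been subtracted, and array medians differed. All 21 columns were used, 0 left out. Values were quantile-normalized over the 21 arrays and transformed as log2(value + 16). This log2 scale understates fold changes of dim genes.

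Groups and letters came from the sample titles. The 12 arrays were fitted with limma 3.58.1 in R 4.3.3 (lmFit, eBayes, two-sided), with 4 hairpin groups and the letter as a block (6 residual degrees of freedom). All 30113 probes with 1 gene were tested, Benjamini-Hochberg adjusted together, at 0.05. Genes are read by their brightest probe. Residuals of arrays with the same letter correlated (lowest r 0.589 for A, 0.482 for B, 0.381 for C). However, B with C (median 0.509) resembled B with B (0.54), so the residuals set A apart and hardly told B from C. The members, gene lists and the rule for named genes were chosen with earlier results of these data known. The rule names MSH3, MSH6, the 12 highest and 12 lowest genes of all 4 pairs by smallest difference, the 5 largest rises and falls in the mean, the 2 largest of each pair and up to 6 calls of each list. BTG3, WNT10A, ATL3, PUS3 and GBP2 lie outside it and were named after their values were seen. Median scaling, values as deposited, normexp, other offsets and filters, other sets of arrays and left-out arrays and hairpins were tried. Promoters came from RefSeq (GRCh38.p14), matching 15034 of 20046 genes.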

Additional observations from a re-analysis of the deposited data

Results flagged for a closer look

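These genes are listed because the hairpins of the same target differed (adjusted p under 0.05 in limma), so that the difference between MSH3 and MSH6 hairpins depends on the hairpin. The log2 difference of 603 minus 543 was 1.20 for MSH6, -0.50 for APOE, 0.91 for LOXL4, -0.48 for DPYSL3, 0.34 for BTG3 and 0.76 for WNT10A among the genes that passed in all 4 pairs. It was -1.73 for IFI27 and -0.86 for IRF9 in the interferon group. Among matrix and secreted proteins it was 1.32 for PTGDS, -2.97 for SPOCK2, 0.76 for IGFBP5, 1.02 for LAMA4, 1.71 for COL16A1, -1.97 for COL3A1, 1.20 for COL4A1, -0.67 for COL6A1 and 0.88 for PLAT. It was -1.68 for ACTA2, -1.78 for TPM2 and -0.56 for MYL9, -1.29 for PCDH7, -1.60 for AGR2 and -0.96 for LSS. Among cancer/testis genes it was -1.12 for VCX3A, -1.19 for VCX3B, -1.13 for VCX, -0.83 for VCX2 and 1.10 for MAGEC1.

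The MSH3 hairpins differed in fewer of the named genes. The log2 difference of 059 minus 062 was 1.19 for COL16A1, -1.46 for VCX3A, -1.41 for VCX3B, -1.43 for VCX, -1.14 for VCX2, 0.42 for MAGEC1 and -1.02 for PAGE5. No explanation of these differences was tested.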

How the results depend on the processing

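Counts below are in the order mean comparison, 059 against 543, 059 against 603, 062 against 543, 062 against 603 and all 4 pairs, beside 894, 133, 493, 329, 1157 and 28. Residuals set letter A apart from B and C but hardly told B from C. Without the letter as a block the counts were 151, 22, 86, 49, 257 and 3. They were 160, 56, 62, 40, 372 and 2 with median scaling and 51, 4, 22, 9, 238 and 0 on the values as deposited (67 genes had unadjusted limma p under 0.05 in all 4 pairs). The split of 062 against 603 was then 318 higher and 54 lower, and 221 and 17, beside 583 and 574, while for 059 against 543 median scaling gave 6 higher and 50 lower beside 47 and 86. With letters B and C only the counts were 2388, 928, 1559, 2166, 2946 and 194. The mean comparison gave 0 with letter A only (2198 at an unadjusted p under 0.05) and 0 on hairpin means (2115), where 2 hairpins against 2 leave few degrees of freedom, 350 without hairpin 062 and 150 without hairpin 603. With all 15 KLE arrays 059 against 543 gave 203 and 062 against 543 gave 504. With 1 array left out the ranges were 345 to 1488, 13 to 405, 89 to 950, 46 to 989, 355 to 1720 and 4 to 78. Signs turned for ALDH1A3 with letter A only (0.11), without 062 (0.10) and without 603 (0.15), for AGR2 without 543 (0.32) and for SPOCK2 (-0.23) and TPM2 (-0.33) without 603. Of the 28 genes, all kept their sign in the mean under every alternative, 15 passed in it without the block or with median scaling and 9 as deposited. With the spread allowed to vary with intensity, 25 genes passed in all 4 pairs, of which 11 were among the 28. The causes were not tested. The 3 arrays per hairpin and a background near the median limit small differences of dim genes.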
